A study of Oryctolagus cuniculus with 16 samples.

Results

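The extracellular proteins that a wound lays down first, and the matricellular proteins that adjust how cells hold on to a matrix, were followed through 10 genes in the vaginal wall of female New Zealand White rabbits. The genes were SPARC, THBS1, THBS2, TNC, POSTN, SPP1, IBSP, FN1, VCAN and FNDC1, matched by symbol to a count table of 13001 named genes. All 10 were present and all 10 were tested. Of these, 8 were taken for their function, while IBSP and FNDC1 were chosen by their levels in libraries from grafted animals, so their values there are given as a description without a test. The series describes 16 juvenile animals aged 17 to 19 weeks, from which poly(A) RNA was sequenced in 6 libraries of native vagina without surgery (control), 3 of sham-operated vagina (sham), 3 of vagina that received a graft without tissue particles (acellular) and 4 of vagina that received a graft with tissue particles (PLATE). Graft libraries came from tissue 10 mm from the graft, and no sampling distance is given for sham and control, so graft and sampling site cannot be told apart in those comparisons. The labels give no time after surgery. Libraries are named by group and labelled animal number. The number 9 labels both a control and a PLATE library, the labels do not say whether they are 1 animal, and the 2 were treated as independent.

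Fibronectin, encoded by FN1, forms with fibrin and versican (VCAN) the loose provisional matrix on which fibroblasts enter a wound. Matricellular proteins such as SPARC, the thrombospondins, tenascin-C (TNC), periostin (POSTN) and osteopontin (SPP1) carry little mechanical load. They bind collagen, integrins or growth factors, and are known for being low in most resting adult tissues and high in developing or healing ones. Bone sialoprotein (IBSP) is an integrin-binding glycoprotein best known from mineralising bone, and FNDC1 is a secreted protein with fibronectin-like domains.

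Total counts per library lay between 20992063 and 30695000, and the named genes took 15348880 to 23236339 of them. Levels are given as CPM, counts scaled to the effective library size, and compare libraries for 1 gene, not genes with each other, because transcript length was not corrected for. In bulk tissue, fewer cells of a type and less RNA per cell cannot be told apart. PLATE 1, control 2 and control 9 stood apart from their groups in the cell type markers examined. PLATE 1 had the highest macrophage marker sum (3030 CPM over 13 genes, against 387 to 841 in the other PLATE libraries) and the highest neutrophil sum (2959 CPM over 6 genes, against 242 to 517). Its sums were also the highest of 16 for plasma and B cells (36514 CPM over 7 genes, against 3828 to 6774), endothelium (1133 CPM over 6 genes, against 602 to 896) and cell cycle genes (220.01 CPM over 4 genes, against 51.7 to 76.3). The part of these cells in the levels of members in PLATE 1 was not tested. Control 2 had the highest smooth muscle sum (158189 CPM over 7 genes) and the lowest columnar epithelium sum (17.0 CPM over 8 genes), and control 9 had the lowest smooth muscle sum (9375 CPM). The factor that scaled the library size of control 2 was 0.59, against 0.92 to 1.15 in the other libraries, which raised its CPM values. Values that leave out PLATE 1, control 2 or control 9 are given beside some of the results that rest on them.

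Across all 10942 genes tested, the quasi-likelihood test of edgeR passed 0 genes (percent called 0) in each of the 6 pairs of groups, in operated against control and in the joint test of the 4 groups, and therefore 0 of the members. Unadjusted p was under 0.05 for 326 to 821 genes in a pair. Differences below are therefore fitted log2 fold changes ± standard error with adjusted p over all genes, and none passed the threshold of 0.05.

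**Figure D1:**
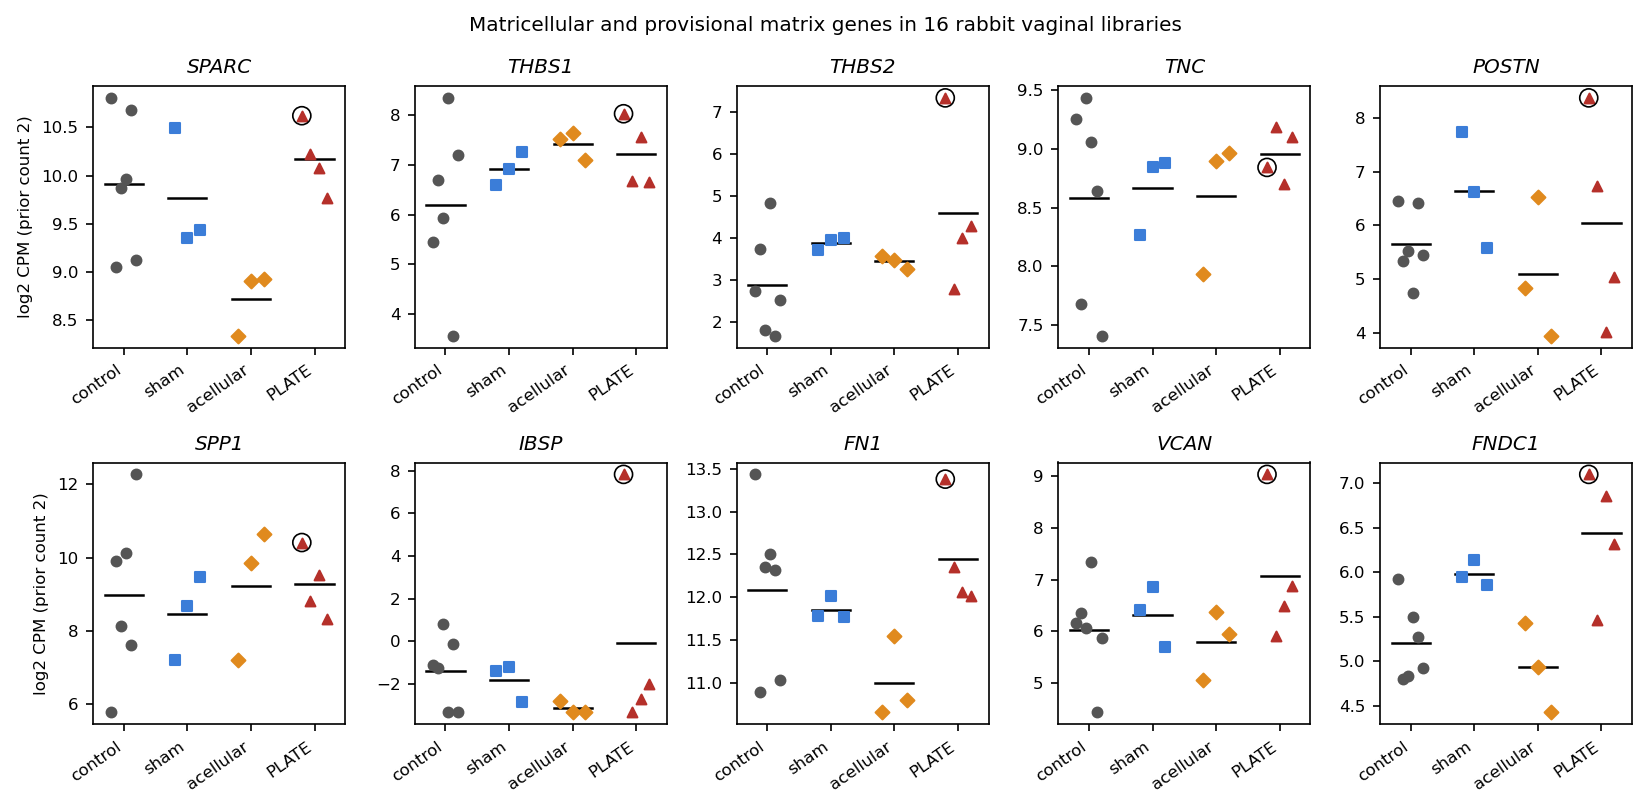
Levels of the 10 genes in each library, as log2 CPM with a prior count of 2, by group. Points are libraries, lines are group means and the circle marks PLATE 1. The 3 acellular libraries are the lowest of all 16 for SPARC, and PLATE 1 is the highest for THBS2, POSTN, IBSP, VCAN and FNDC1. The vertical axes differ between panels.

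SPARC, a collagen-binding matricellular protein, was lowest beside acellular grafts. Its level was 324, 481 and 487 CPM in acellular 6, 8 and 10. It was 1446, 654 and 695 CPM in sham 11, 12 and 14 and 1576, 1199, 1078 and 870.0 CPM in PLATE 1, 5, 9 and 13. Controls ran from 531 through a median of 967 to 1791 CPM. The 3 acellular libraries thus held the last 3 places of 16, and their range overlapped with that of no other group, while control, sham and PLATE overlapped with each other. The log2 fold change was -1.32 ± 0.418 for acellular against control (edgeR adjusted p = 0.827), -1.11 ± 0.459 against sham (adjusted p = 0.902) and 1.45 ± 0.443 for PLATE against acellular (adjusted p = 0.875). With 1 library left out, the comparison with control ran from -1.46 (without control 9) to -1.10 (without control 2). Sham 11 bore on the comparison with sham, which was -0.63 without it. Without PLATE 1 the difference between the grafts was 1.28, and the lowest PLATE library, PLATE 13, still lay above every acellular one. The smooth muscle marker sum was low in the same libraries, at 13588 to 18607 CPM in acellular, 29602 to 48557 in PLATE, 37928 to 64107 in sham and 9375 to 158189 in control. The skeletal muscle sum (6 of 9 genes in the table) was 1046 to 2052 CPM in acellular, 3392 to 5866 in PLATE, 4247 to 6134 in sham and 1081 to 21326 in control. DES, which is in both lists, averaged 4404 CPM in PLATE and 5115 in sham. The highest of the other tested skeletal muscle markers, CKM, averaged 16.1 and 32.5 CPM, so DES made up nearly all of that sum there. Every smooth muscle marker in the table had counts in every library, and 0 to 2 of the skeletal muscle markers were at 0 in a library. The part of either in the SPARC difference was not tested.

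FN1 had the same order of groups. It stood at 1610, 2994 and 1780 CPM in acellular 6, 8 and 10, at 3521, 4135 and 3487 CPM in the sham libraries and at 10660, 5248, 4260 and 4121 CPM in PLATE 1, 5, 9 and 13. In controls it ran from 1904 to 11078 CPM with a median of 5164. Every acellular library lay below every sham and PLATE library, but control 9 and control 29 lay within the acellular range. The log2 fold change was -1.29 ± 0.522 for acellular against control (edgeR adjusted p = 0.827), and -0.90 without control 2. It was -0.80 ± 0.571 against sham (adjusted p = 0.902) and 1.51 ± 0.555 for PLATE against acellular (adjusted p = 0.875), and the last was 1.09 without PLATE 1. ITGA5, the alpha chain of the main fibronectin receptor, averaged 100.1 ± 31.001 CPM in acellular (SD, n = 3) against 300.1 ± 243 in control (n = 6), 235 ± 79.6 in sham (n = 3) and 266 ± 147 in PLATE (n = 4).

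VCAN, the large hyaluronan-binding proteoglycan of provisional matrix, was set apart by 1 library. It stood at 526 CPM in PLATE 1 and at 59.9, 90.1 and 117 CPM in PLATE 5, 9 and 13. Acellular libraries held 33.1, 82.5 and 61.4 CPM, sham libraries 84.8, 116.14 and 51.9 CPM, and controls 21.4 to 161 CPM with a median of 69.0. All 4 groups overlapped. The log2 fold change was 1.37 ± 0.571 for PLATE against control (edgeR adjusted p = 0.998) and 0.21 without PLATE 1. For PLATE against acellular it was 1.75 ± 0.723 (adjusted p = 0.875) and 0.59 without that library.

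The thrombospondins are secreted trimers or pentamers, and THBS1 and THBS2 form the trimeric pair that binds CD36 and CD47. THBS2 stood at 162 CPM in PLATE 1, 5.67 times the next highest library, control 24 at 28.6 CPM. The other PLATE libraries held 6.72, 15.9 and 19.3 CPM, the acellular ones 11.8, 11.0 and 9.47 CPM and the sham ones 13.0, 15.4 and 15.7 CPM. Controls ran from 3.06 through a median of 6.03 to 28.6 CPM. Its log2 fold change of 2.34 ± 0.761 for PLATE against control (edgeR adjusted p = 0.998) was 0.47 without PLATE 1, and that of 2.24 ± 0.973 for PLATE against acellular (adjusted p = 0.875) was 0.38. Between acellular and sham the groups did not overlap, with acellular lower by a fitted step of -0.45 ± 0.971 (adjusted p = 0.962).

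THBS1 spread more widely among controls than in any operated group. It ran from 11.8 CPM in control 25 to 324 CPM in control 24, with a median of 82.5. The operated groups lay inside that range, at 183, 199 and 137 CPM in acellular 6, 8 and 10, at 96.1, 121 and 153 CPM in sham, and at 260, 102.04, 188 and 100.005 CPM in PLATE 1, 5, 9 and 13. The comparison farthest from 0 in units of its standard error was acellular against control, at 0.59 ± 0.65 (edgeR adjusted p = 0.929). It ran from 0.35 without control 25 to 1.24 without control 24.

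TNC, a hexameric glycoprotein known for its induction at wound margins, was the most even member between groups. Group means were 435 ± 216 CPM in control (SD, n = 6), 413 ± 90.8 in sham (n = 3), 407 ± 141 in acellular (n = 3) and 501 ± 76.9 in PLATE (n = 4). Its log2 fold changes lay between -0.10 and 0.30 over the 7 comparisons. The farthest, PLATE against acellular, was 0.30 ± 0.424 (edgeR adjusted p = 0.93) and 0.04 without acellular 6. PLATE 1, which was high in most other members, held 459 CPM, and the 2 lowest libraries were controls, control 29 at 169 CPM and control 9 at 204 CPM.

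POSTN, which is secreted by activated fibroblasts and binds collagen, spread widely in every operated group. It was at 332, 105.9, 16.1 and 32.8 CPM in PLATE 1, 5, 9 and 13, at 212, 97.9 and 48.0 CPM in sham 11, 12 and 14, and at 28.2, 92.3 and 15.3 CPM in acellular 6, 8 and 10. Controls held 26.6 to 87.7 CPM with a median of 44.9, and all groups overlapped. The log2 fold change of PLATE against control was 1.14 ± 0.703 (edgeR adjusted p = 0.998), and its sign turned without PLATE 1, to -0.09.

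SPP1, an integrin- and CD44-binding phosphoprotein made by macrophages and many epithelia, had the widest range among the members that had counts in every library. It reached 4931 CPM in control 29 and was lowest, at 55.1 CPM, in control 2, a ratio of 89.4. Controls had a median of 619 CPM, sham libraries 148, 409 and 713 CPM, acellular libraries 148, 928 and 1606 CPM and PLATE libraries 1362, 454, 744 and 324 CPM. Each operated group lay inside the control range. The comparison farthest from 0 in units of its standard error, sham against control, was -1.57 ± 1.13 (edgeR adjusted p = 0.963), and without control 29 it was -0.30.

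IBSP was almost confined to 1 library. PLATE 1 held 3501 of the 3586 counts in the whole table, 97.6%, equal to 226 CPM. The other 3 PLATE libraries held 4 counts together, the 3 acellular libraries 1, the 3 sham libraries 14 and the 6 controls 66, of which 38 were in control 16. In 5 libraries no count was found. IBSP passed the filter on low counts through PLATE 1 and did not pass it when that library was left out. Because a fold against groups near 0 has no stable value, none is given.

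SPP1 and IBSP lie close together in the genome in a cluster of genes for acidic integrin-binding glycoproteins, and the RefSeq gene table of the assembly mOryCun1.1 places MEPE between them and DMP1 next to IBSP. In PLATE 1, MEPE had 4 counts, DMP1 had 0 and SPP1 had 21057. SPP1 at 1362 CPM there was below its level in control 29 and acellular 10. SP7, the transcription factor that defines osteoblasts, was at 0.13 CPM in PLATE 1 and at 0 in all other libraries. As 1 count equals 0.065 CPM in PLATE 1, SP7 was near the floor there too. BGLAP, which encodes osteocalcin, was at 1.94 CPM in PLATE 1, against 1.34 to 5.31 CPM elsewhere. RUNX2, which acts upstream of SP7, was at 5.04 CPM against 0.27 to 4.201 CPM, and ALPL, the tissue-nonspecific alkaline phosphatase, at 10.2 CPM against 0.90 to 10.2 CPM. These genes belong to a list of mineralised tissue genes, of which 10 beyond the members were tested. In PLATE against control 3 of these were higher and 7 lower, at a median of -0.37. MGP, the matrix Gla protein that restrains calcification, averaged 293 ± 110.3 CPM in acellular (SD, n = 3), 625 ± 263 in control (n = 6), 464 ± 139 in sham (n = 3) and 431 ± 69.8 in PLATE (n = 4). CTSK reached 3466 CPM in PLATE 1 against at most 1747 CPM in a control, and OMD, the proteoglycan osteomodulin, ran from 1.66 to 12.3 CPM over all libraries.

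FNDC1 had a narrow spread in sham, at 61.5, 70.2 and 58.05 CPM. PLATE 1, 5, 9 and 13 held 137, 44.1, 115.7 and 80.0 CPM, acellular 6, 8 and 10 held 42.9, 30.6 and 21.5 CPM, and controls ran from 27.8 through 34.4 to 60.9 CPM. The acellular libraries lay below every sham and PLATE library, but PLATE 5 at 44.1 CPM was only just above acellular 6. These graft values chose the gene, and the differences of 1.57 ± 0.372 (PLATE against acellular), 1.29 ± 0.296 (PLATE against control) and -0.997 ± 0.383 (acellular against sham) are a description. Without PLATE 1 the first was 1.34 and the second 1.05. The comparison that did not use graft libraries, sham against control, was 0.71 ± 0.321 (edgeR adjusted p = 0.963), and control 2 alone lay inside the sham range.

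**Figure D2:**
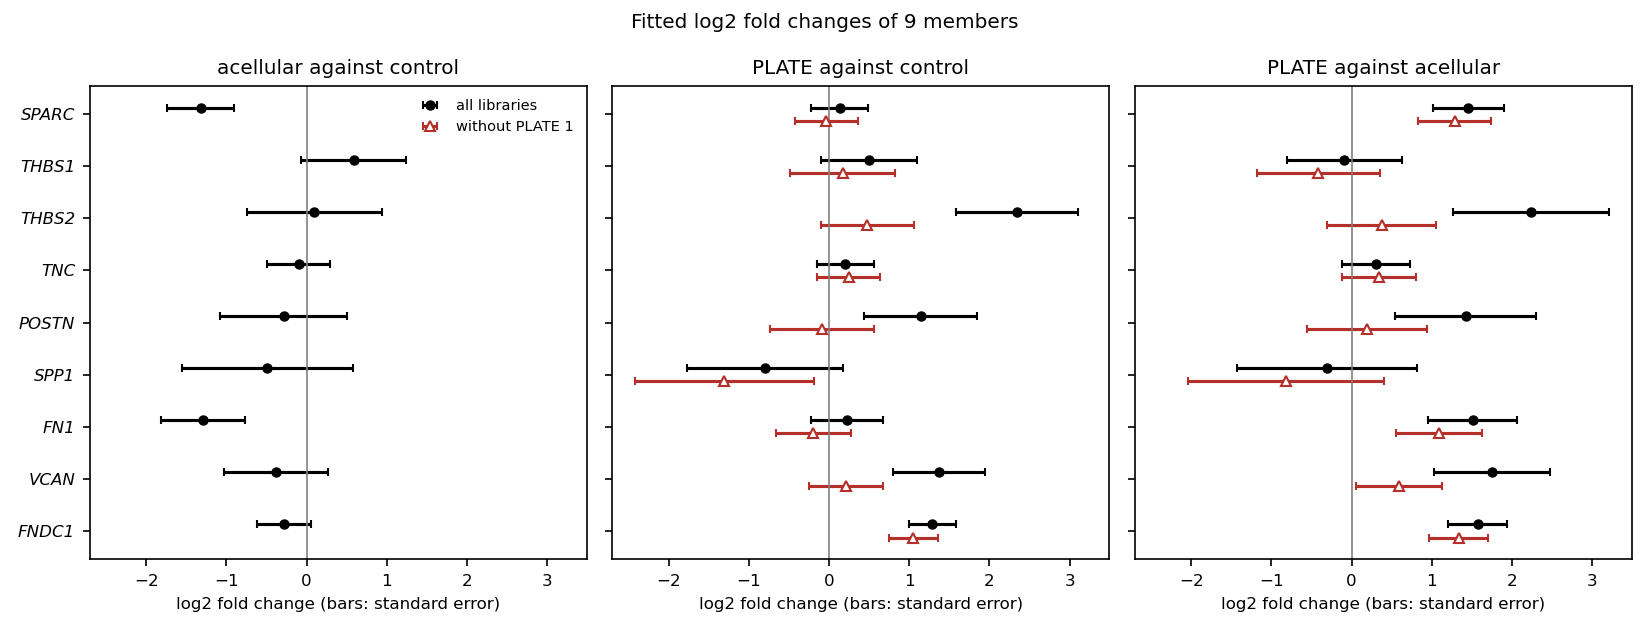
Fitted log2 fold changes of 9 members with standard errors, for 3 comparisons. Filled circles use all libraries and open triangles leave out PLATE 1; IBSP is not drawn. For THBS2 the PLATE against control value moves from 2.34 to 0.47 without PLATE 1, while for SPARC the PLATE against acellular value moves from 1.45 to 1.28.

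Non-overlap was counted over the 8 members taken for function, because graft values chose IBSP and FNDC1. Between acellular and control 1 of 8 was lower without overlap (SPARC), where 1.02% of all genes were. Between acellular and sham 3 of 8 were lower without overlap (SPARC, THBS2 and FN1), where 10.5% of all genes were. Between PLATE and acellular 2 of 8 were higher without overlap (SPARC and FN1), where 3.27% of all genes were. The acellular libraries enter all of these counts. In sham against control, PLATE against control and PLATE against sham each of the 8 overlapped, where 3.69%, 0.119% and 14.9% of all genes did not.

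Over the same 8 genes, 7 were higher in PLATE than in control at a median log2 fold change of 0.36, where 47.7% of all genes were higher and their median was -0.01. Without PLATE 1 this was 4 of 8 at a median of 0.07, so that the value rests on that library. Without control 9 it was 6 of 8 at 0.26. In PLATE against sham 8 of 8 were higher at 0.55, where 52.6% of all genes were, and without PLATE 1 this was 6 of 8 at 0.12. In PLATE against acellular 6 of 8 were higher at 1.44, where 52.4% of all genes were, and without PLATE 1 again 6 of 8 at 0.36. In acellular against sham 6 of 8 were lower at -0.48, where 47.8% of all genes were. In acellular against control 6 of 8 were lower at -0.33, where 54.2% of all genes were, and without control 2 this was 5 of 8 at -0.23. In sham against control 4 of 8 were higher at 0.01, where 42.1% of all genes were. Over these 8 genes, PLATE 1 held 1 of the 3 highest levels of the 16 libraries for all but TNC. Acellular 6 held 1 of the 3 lowest for SPARC, TNC, SPP1, FN1 and VCAN, and acellular 10 for SPARC, POSTN and FN1. Controls held such places too. Control 25 was the lowest of the 16 for THBS1, THBS2 and VCAN, and control 24 held 1 of the 3 highest for THBS1, THBS2, FN1 and VCAN. The share of all genes with such places was not counted.

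Across the 16 libraries the members followed different cell type markers. Each of the 8 members taken for function was compared with 10 marker sums, 80 relations in all, on log2 scales. SPARC followed the smooth muscle sum with Pearson r = 0.83 (permutation p = 5e-05, adjusted 0.0022) and Spearman rho = 0.83 (permutation p = 0.00011, adjusted 0.0056). Without control 2 and control 9, the libraries farthest from the median, r was 0.82, and within the 6 controls r was 0.95 and rho 0.94. FN1 followed the same sum with r = 0.80 (permutation p = 0.00025, adjusted 0.00333) and rho = 0.77 (permutation p = 0.00095, adjusted 0.0152). Its r was 0.69 without those 2 libraries. Within controls r was 0.97 and rho 0.77, with control 2 the highest on both axes. The skeletal muscle sum gave relations as close: for SPARC r = 0.85 (permutation p = 6e-05, adjusted 0.0022) and rho = 0.82 (permutation p = 0.00021, adjusted 0.0056), with r = 0.77 without acellular 6 and control 2. For FN1 they were r = 0.84 (permutation p = 0.00011, adjusted 0.0022) and rho = 0.84 (permutation p = 0.00016, adjusted 0.0056), with r = 0.74 without the same libraries. That list holds DES, which smooth muscle also expresses and which is in the smooth muscle list too. In PLATE and sham DES made up nearly all of the sum, so these relations do not stand for skeletal muscle. Both r and rho passed adjustment in 7 of the 80 relations. VCAN followed the endothelial sum (6 of 8 genes in the table) with r = 0.84 (permutation p = 9e-05, adjusted 0.0022) and rho = 0.72 (permutation p = 0.00251, adjusted 0.0287). Without acellular 6 and control 25 its r was 0.73, and without PLATE 1, the highest library on both axes, r was 0.82 and rho 0.66. THBS2 followed the same sum with r = 0.71 (permutation p = 0.00357, adjusted 0.026) and rho = 0.71 (permutation p = 0.00333, adjusted 0.0333), and without PLATE 1 its r was 0.62 and rho 0.65. SPARC also followed the fibroblast sum, with r = 0.76 (permutation p = 0.00071, adjusted 0.0071) and rho = 0.74 (permutation p = 0.00169, adjusted 0.0225). A sum is led by its most abundant markers. With the mean log2 CPM of the fibroblast markers instead, rho for SPARC was 0.35. The same change gave SPARC and FN1 rho of 0.79 and 0.72 with smooth muscle and 0.70 and 0.60 with skeletal muscle. VCAN and THBS2 had 0.74 and 0.74 with endothelium. Both axes of each relation come from the same library and share its composition, and the markers of 1 cell type can move with those of another. The permutations took the 16 libraries without regard to group, so differences between groups enter r, rho and their p-values.

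SPP1 rank-followed the macrophage sum, with rho = 0.77 (permutation p = 0.00082, adjusted 0.0152) and r = 0.63 (permutation p = 0.00962, adjusted 0.0513). Its r was also 0.63 without PLATE 1 and control 25. Further members passed adjustment with the macrophage sum by r alone. VCAN had r = 0.83 (permutation p = 0.00018, adjusted 0.00288) and rho = 0.67 (permutation p = 0.00583, adjusted 0.0518), with r = 0.54 without PLATE 1 and control 25. THBS2 had r = 0.80 (permutation p = 0.00049, adjusted 0.0056) and rho = 0.59 (permutation p = 0.0179, adjusted 0.119), with r = 0.49 without them. THBS1 had r = 0.68 (permutation p = 0.00545, adjusted 0.0363), but its rho of 0.63 did not pass adjustment (permutation p = 0.0107, adjusted 0.078), and r was 0.50 without the same 2 libraries. With other sums, r alone passed for FN1 with fibroblast (r = 0.76, permutation p = 0.00082, adjusted 0.00729) and columnar epithelium (r = -0.65, permutation p = 0.00243, adjusted 0.0194). It also passed alone for THBS1 with endothelium (r = 0.66, permutation p = 0.0076, adjusted 0.0434) and TNC with skeletal muscle (r = 0.64, permutation p = 0.00751, adjusted 0.0434). Control 29, the highest SPP1 library, held an ordinary macrophage sum of 617 CPM among controls of 168 to 1206 CPM. PLATE 1, with the highest macrophage sum, was below control 29 and acellular 10 for SPP1.

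Among the 28 pairs of the 8 members, 2 passed adjustment. SPARC and FN1 had r = 0.86 (permutation p = 3e-05, adjusted 0.00084) and rho = 0.85 (permutation p = 9e-05, adjusted 0.00252). Their r was 0.79 without acellular 6 and control 2 and 0.91 within the 6 controls, where rho was 0.83. THBS2 and VCAN had r = 0.86 (permutation p = 0.00024, adjusted 0.00336) and rho = 0.74 (permutation p = 0.00152, adjusted 0.0213), but r was 0.53 without PLATE 1 and control 25 and 0.69 without PLATE 1 alone. TNC passed with no other member.

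**Figure D3:**
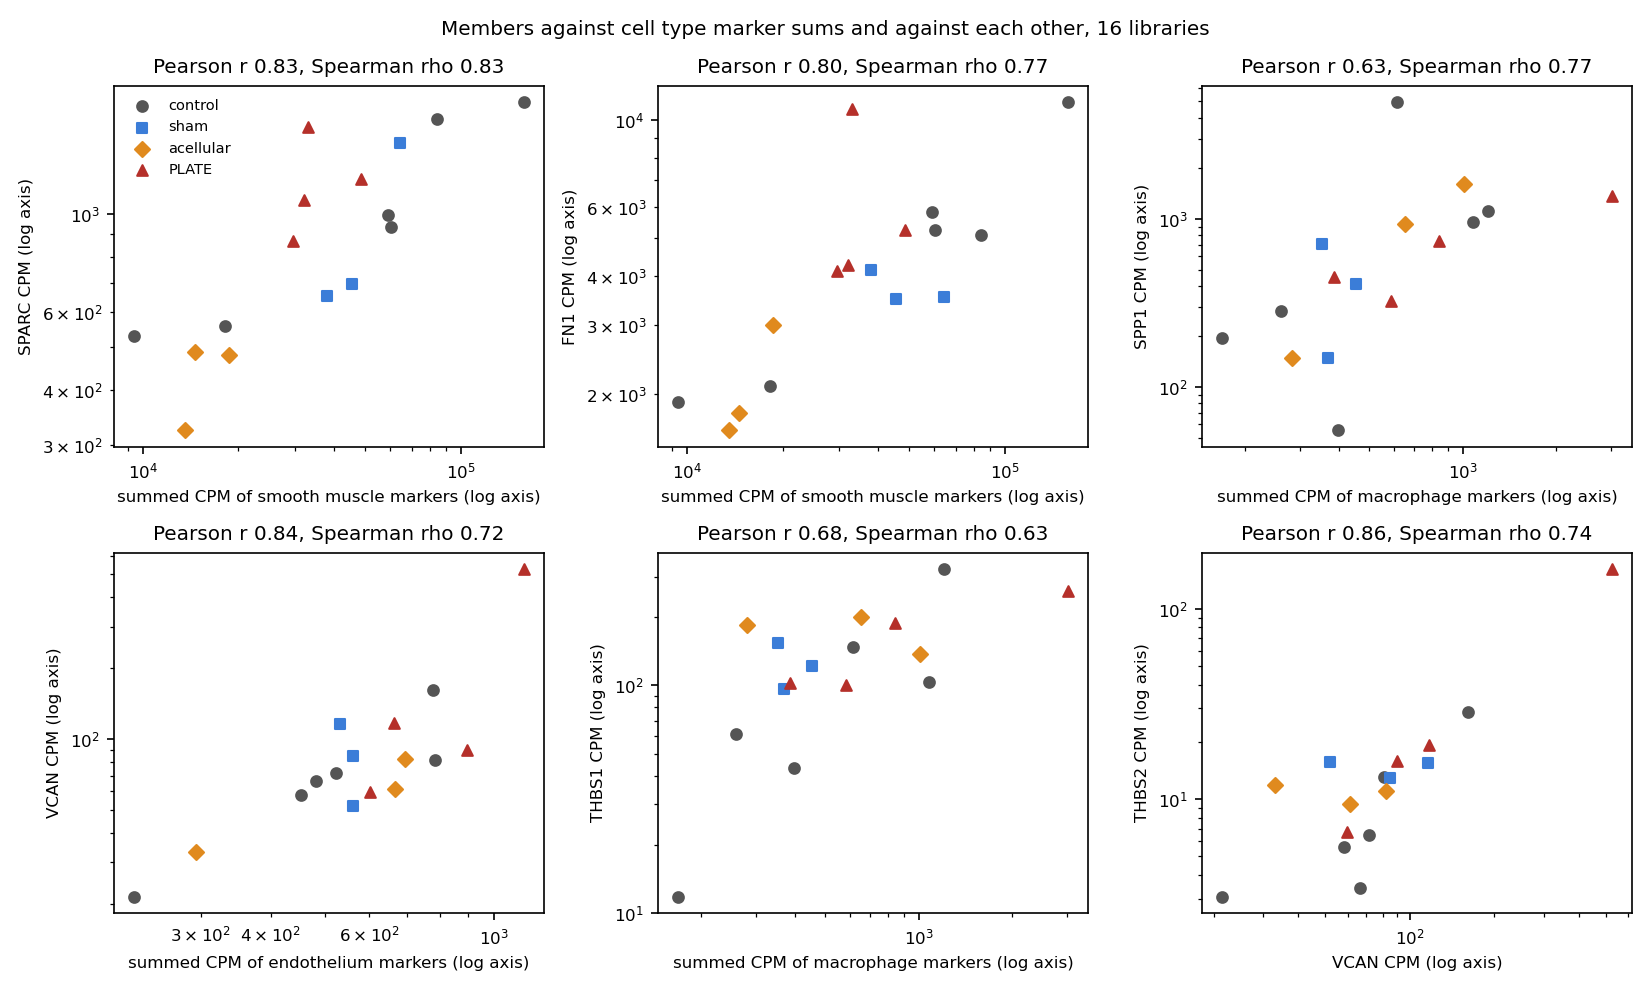
Levels of members against summed CPM of cell type markers, and THBS2 against VCAN, in 16 libraries on log axes. SPARC and FN1 increase with the smooth muscle sum, where the 3 acellular libraries lie at the low end with control 9 and control 29. PLATE 1 is the far right point for macrophage and endothelial markers.

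The tested genes most like each member by Spearman correlation of log2 CPM over the 16 libraries are given as a description. For SPARC they were SDCBP2 (0.94), CAPNS1 (0.93) and IDH2 (0.93), and for FN1 PEA15 (0.93), SDCBP2 (0.89) and ACTN1, an actin crosslinker (0.89), with ITGA5 the fifth (0.87). For THBS2 they were CKAP2L (0.94), SULF1, a heparan sulfate sulfatase (0.93), and ENPP1 (0.91), and for THBS1 MAFF (0.90) and CTSK, the collagen-degrading cathepsin K (0.85). For VCAN they were SLC35E2B (0.89), NOS3, the endothelial nitric oxide synthase (0.87), and SLC1A5 (0.85), with BGN, the proteoglycan biglycan, the fourth (0.84). For SPP1 they were CYP2J1 (0.94), ADAMTS14 (0.90) and LIPA, the lysosomal acid lipase (0.90). For FNDC1 they were TMEM109 (0.80) and COL8A1, a short-chain collagen (0.79), for POSTN DUS2 (0.82) and PRDX4 (0.80), and for TNC B3GLCT (0.75). IBSP, at 0 to 38 counts outside PLATE 1, had CSNK1D (0.92) and ADAMTS7 (0.91), and with so few counts these values describe little. Without PLATE 1, CKAP2L remained first for THBS2, CYP2J1 for SPP1, PEA15 for FN1 and CSNK1D for IBSP.

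Genes around the members were read from lists, none of which had a gene past the threshold. Of 24 tested matricellular relatives, 9 were lower without overlap in acellular than in sham, where 10.5% of all genes were. In PLATE against acellular 17 were higher and 7 lower at a median of 0.46, and 20 and 4 at 0.31 without PLATE 1. FSTL1, a SPARC-related secreted glycoprotein, averaged 184 ± 19.2 CPM in acellular (SD, n = 3), 274 ± 50.1 in control (n = 6), 318 ± 107.1 in sham (n = 3) and 277 ± 32.3 in PLATE (n = 4). TNN, the tenascin relative of TNC, and CCN4, a matricellular protein of the CCN family, were high in PLATE 1 alone, at 28.3 and 19.7 CPM against at most 3.67 and 3.54 CPM in any other library. CCN2, the connective tissue growth factor, reached 729.8 CPM in acellular 6 against 92.0 to 359 CPM elsewhere.

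Of 24 tested genes of provisional matrix, hyaluronan and versican turnover, 20 were lower in acellular than in control at a median of -0.55 (20 at -0.66 without control 2), and 23 were higher in PLATE than in acellular at 0.77. Without PLATE 1 the latter was 18 of 24 at 0.26. VTN, the plasma and matrix protein vitronectin, stood at 53.6 CPM in PLATE 1, 13.7 in PLATE 9 and 11.3 in control 9, and at or under 2.43 CPM elsewhere. CD44, the hyaluronan and osteopontin receptor, averaged 416 ± 190 CPM in PLATE (SD, n = 4), 358 ± 58.1 in sham (n = 3), 263 ± 26.9 in acellular (n = 3) and 229 ± 41.2 in control (n = 6). HAPLN1, which links versican to hyaluronan, was at 3.21 to 7.19 CPM in acellular and 0.65 to 2.06 CPM in sham, the 1 gene of the list that was higher there without overlap, where 7.82% of all genes were (log2 fold change 2.05 ± 0.713, edgeR adjusted p = 0.902). CD44, ADAMTS8, ADAMTS9 and BCAN, 4 of 24, were lower there without overlap, where 10.5% of all genes were. HAPLN1 was also higher without overlap in PLATE than in sham (log2 fold change 2.52 ± 0.700, edgeR adjusted p = 0.657). In that comparison 4 of 24 were higher without overlap, where 7.91% of all genes were. The HAPLN1 mean in sham, 1.29 CPM, was also below the control mean of 3.11 CPM.

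Of 17 tested receptors, 9 were higher and 8 lower in acellular against control at a median of 0.00, and 7 and 10 at -0.14 without control 2. In PLATE against acellular 12 were higher at 0.28, and 12 at 0.16 without PLATE 1. ITGB6, the epithelial integrin chain that binds fibronectin and tenascin-C, averaged 10.3 ± 7.58 CPM in acellular (SD, n = 3) against 3.08 ± 0.276 in sham (n = 3). Its mean in PLATE, 6.65 CPM, was also above that in sham. ITGA4, a leukocyte integrin chain that binds fibronectin and osteopontin, was at 81.6 CPM in PLATE 1 against 4.77 to 31.6 CPM elsewhere.

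The fibrillar collagens and their modifying enzymes had the largest median difference between the grafts among the 6 lists of matrix, receptor and signalling genes. Of 19 tested, 18 were higher in PLATE than in acellular at a median of 1.62, and 17 at 0.81 without PLATE 1. In that comparison 10 were higher without overlap, where 3.27% of all genes were. Against control, acellular was lower in 15 of 19 at -0.98 (15 at -0.81 without control 2), and PLATE higher in 18 of 19 at 0.49 but in 10 of 19 at 0.02 without PLATE 1. COL1A1, a chain of type I collagen, averaged 1111 ± 554 CPM in acellular (SD, n = 3), 3109 ± 2066 in control (n = 6), 3177 ± 2944 in sham (n = 3) and 3646 ± 862 in PLATE (n = 4). COL11A1, a minor fibrillar chain, was at 288 CPM in PLATE 1 and at 0.26 to 9.57 CPM elsewhere. ADAMTS2, which trims procollagen, averaged 21.5 ± 3.67 CPM in acellular and 70.1 ± 35.1 in PLATE (log2 fold change 1.70 ± 0.421, edgeR adjusted p = 0.875), and the difference was 1.36 without PLATE 1. P4HA3, a collagen prolyl hydroxylase subunit, was at 57.9 CPM in PLATE 1, at 6.80 to 8.95 CPM in the other PLATE libraries and at 0.90 to 9.48 CPM in the other groups.

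Of 17 tested genes of TGF-beta ligands, receptors and targets, 9 were higher and 8 lower in PLATE against acellular at a median of 0.09, and 10 and 7 at 0.15 without PLATE 1. In acellular against control 10 were higher and 7 lower at 0.09, and 8 and 9 at -0.01 without control 2. LTBP2, a latent TGF-beta binding protein, averaged 6.84 ± 2.62 CPM in PLATE (SD, n = 4), 6.28 ± 3.11 in sham (n = 3), 2.27 ± 0.778 in acellular (n = 3) and 2.04 ± 2.30 in control (n = 6). PMEPA1, a TGF-beta-induced membrane protein, was at 0.775 to 1.01 CPM in acellular and 1.12 to 1.53 CPM in sham, without overlap, and at 11.1 CPM in PLATE 1 against 0.742 to 2.77 CPM in the other PLATE libraries. In acellular against sham 2 of the 17 were lower and 1 higher without overlap, where 10.5% and 7.82% of all genes were.

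**Figure D4:**
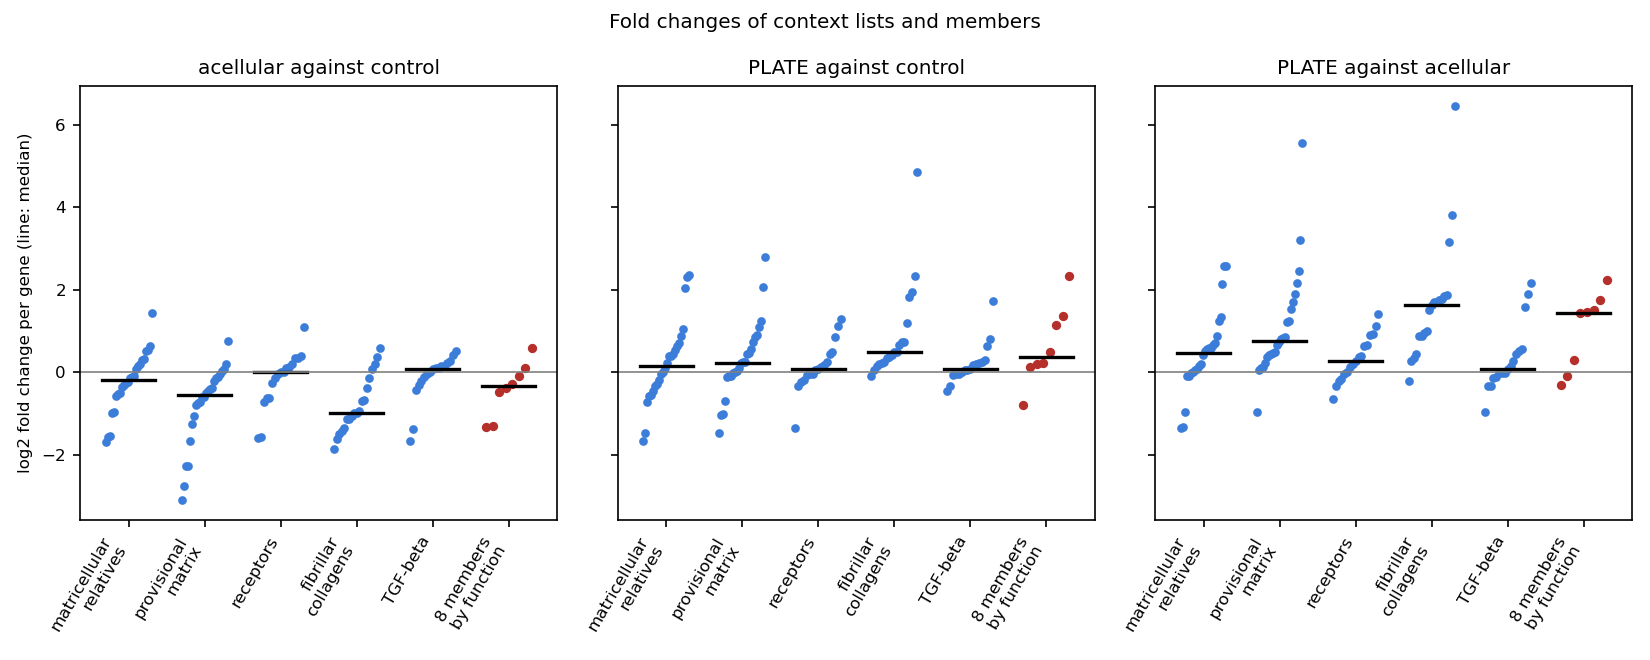
Log2 fold changes per gene for 5 gene lists and for the 8 members taken for function, in 3 comparisons; each point is a gene and each line a median. In PLATE against acellular the collagen list has a median of 1.62 and the TGF-beta list one of 0.09.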

How the data were processed

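Per the labels' protocols, stranded poly(A) libraries were sequenced on a NovaSeq system; per the submitters' processing notes FastQC, HISAT2 2.2.1 and featureCounts were used. Genome build, annotation and strand setting are not given in the sources used here. The authors deposited raw read counts per gene symbol. A line pooling genes without a symbol (22.9 to 28.5% of a library) was left out. Each column was assigned through the sample index at the end of its name, because the descriptions of 15 of 16 samples give a column name that is not in the table and differs from the assigned one in its middle number. Every group label rests on that index.

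All 16 libraries entered 1 fit with a mean per group (edgeR 4.0.16, R 4.3.3, trimmed mean of M values, filterByExpr with a minimum count of 10, quasi-likelihood F test). P-values were Benjamini-Hochberg adjusted over 10942 genes. Correlations used 100000 permutations over all 16 libraries without regard to group, adjusted within each family. Scripts were tested on simulated data. Alternatives used DESeq2 1.42.0 and limma 3.58.1. Counts and correlations without single libraries, and counts over the 8 members taken for function, were added after seeing the data. The members and lists were chosen with earlier results of these data known. Besides the members, the text names the genes of each list with the smallest joint p, and up to 5 genes most like a member. SP7, BGLAP, RUNX2, ALPL, MEPE, DMP1, ITGA5, COL1A1, ADAMTS8, ADAMTS9 and BCAN were named after their values were seen.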

Additional observations from a re-analysis of the deposited data

Results flagged for a closer look

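Dixon's test was run on CPM in 16 sets of libraries (the 8 genes taken for function, in the control and PLATE groups). In 3 sets it flagged a library far from the rest of its group. The test takes normally distributed values and was not run on the log2 scale. How many sets chance would flag is therefore not known. PLATE 1 stood apart from the other PLATE libraries for THBS2 (162 CPM, nearest 19.3) and VCAN (526 CPM, nearest 117). Control 29 stood apart from the other controls for SPP1 (4931 CPM, nearest 1110). Groups of 3 libraries were not examined in this way.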

How the results depend on the processing

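The edgeR counts of 0 genes called were 0 in every comparison with DESeq2 size factors, without the filter on low counts, with the pooled line in the library size, in fits of 2 groups alone, and with each library, or control 2 with PLATE 1, or these with control 9, left out. The DESeq2 test called 10 genes in acellular against control, 14 in PLATE against sham and 1 each in acellular against sham, PLATE against acellular, operated against control and the joint test, and voom with quality weights called 72 in acellular against sham. None of these calls was a member. Of 318 alternative values for 20 member comparisons, 316 kept their direction. The exceptions were POSTN in PLATE against control, at -0.0499 with voom, at -0.0916 without PLATE 1 and from -0.0916 to 1.51 with a library left out. The smallest adjusted p of a member under any alternative was 0.121. No paired analysis was possible because control and PLATE share 1 animal number, 9, and no other groups share any. Low counts limit IBSP.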
